A study of Bos taurus with 3 samples.

Results

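The genes described here encode the DEAD and DEAH box RNA helicases and a few related RNA helicases. They were chosen by gene symbol: every DDX or DHX symbol followed by a number (with an optional A, B or L), together with DICER1, AQR, UPF1 and the SKIV2L genes, but without DDX58, DDX60, DHX58, DDX3X and DDX3Y. Of 31903 genes in the table, 52 had such a symbol. RNA was measured by sequencing in 3 biological replicates of BFF116, bovine fetal fibroblasts a cultured cell type whose nuclei are put into emptied eggs to make cloned embryos. All replicates were held without serum for 48 h to synchronize the cell cycle, and cDNA amplified from the total RNA of about 70000 cells went into each library. The series has this 1 group, with no cells kept in serum and no other cell type, so nothing here can be tied to starvation, and, as no label ties a replicate to its own culture or animal, p-values measure only the spread between these samples, part of which may be technical.

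RNA helicases use ATP to open RNA duplexes or to strip proteins from RNA. DEAD box members pry open short duplexes locally and often act as clamps or switches, while many DEAH box members pull on a single strand and so drive the ordered rearrangements of the spliceosome. Between them they act at nearly every step in the life of an RNA, from transcription and splicing through export, translation and decay, and a large set is needed to assemble ribosomes in the nucleolus.

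Libraries 1 to 3 held 8608350, 4842331 and 7122651 gene counts, and the Pearson correlations of log2 levels between libraries, over genes and not over samples, ranged from 0.940 to 0.970. Levels are given as CPM (counts scaled to a common library size), scaled between libraries with TMM factors of 0.978, 1.02 and 0.998. No transcript lengths were used here, so a CPM value also carries the length of its gene: values of 1 gene can be compared between libraries, but the CPM of 2 genes do not rank their transcripts. A gene is called measured where it had 1 CPM or more in every library. All 10 of 10 fibroblast markers were measured, while 0 of 6 epithelial, 0 of 3 erythroid and 0 of 4 skeletal muscle markers were, and 2 of 4 endothelial and 2 of 5 leukocyte markers were measured at means of at most 5.93 and 3.42 CPM. The summed level over each whole list ranged over libraries from 1.90 to 4.63 CPM for epithelial, 0.475 to 5.44 for erythroid, 0.713 to 2.82 for skeletal muscle, 5.64 to 12.2 for endothelial and 4.23 to 11.0 for leukocyte markers. EPCAM, KDR, PTPRC and MYOD1 were at 0 reads in every library.

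Of the 52 helicase genes, 48 (92.3%) were measured, beside 34.6% of all genes in the table and 61.2% of genes with a read. Together the helicase genes took 0.599, 0.585 and 0.513% of gene counts in replicates 1 to 3, a mean of 0.565% ± 0.0460 (SD, n = 3), with the lowest share in replicate 3. The 4 with most reads, DDX17, DDX5, DDX6 and DDX1, took 54.0% ± 1.39 of these reads. Values below are mean CPM ± SD of the 3 replicates unless they are given by library.

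**Figure D1:**
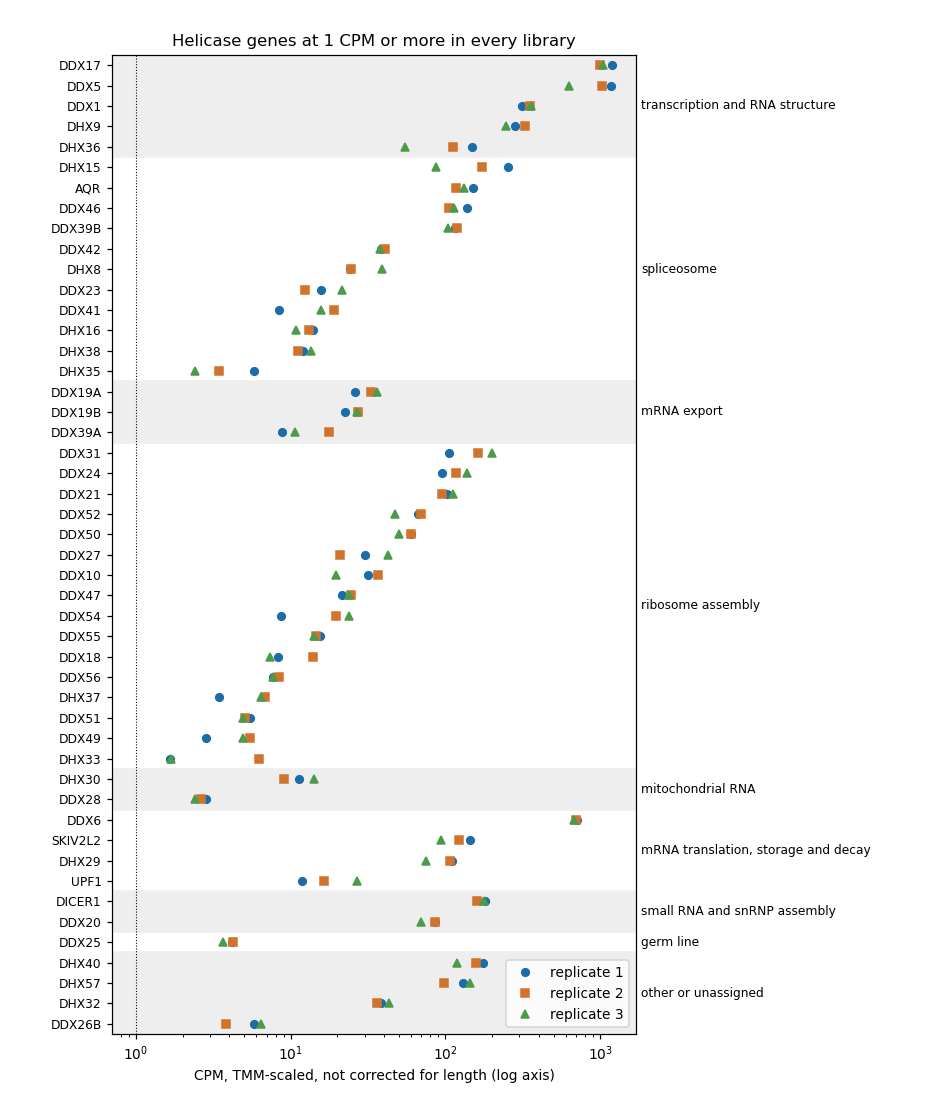
Each row is 1 of the 48 measured helicase genes, grouped by role, and each symbol is the CPM in 1 of the 3 libraries (log axis, not corrected for length, dotted line at 1 CPM). DDX6 shows 3 symbols almost on top of each other at 694 ± 14.6 CPM, while DHX15, DHX36 and DHX33 show 1 library well away from another.

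Among helicases that act on transcription and RNA structure, all 5 of 5 were measured. DDX17 had 1194, 995 and 1038 CPM in replicates 1 to 3, a mean of 1075 ± 104. Its paralog DDX5, which like DDX17 is a coregulator of transcription and splicing, had 1178, 1031 and 634 CPM (948 ± 282). DDX5 was thus 1.86 times as high in replicate 1 as in replicate 3, against 1.20 for the highest over the lowest library of DDX17. DDX1, part of the tRNA ligase complex, stood at 342 ± 23.5 CPM, and DHX9, which unwinds long RNA duplexes and links RNA to the transcription machinery, at 286 ± 40.9. DHX36, which resolves G-quadruplexes in RNA and DNA, had 148, 112 and 54.7 CPM (105 ± 47.2), a 2.71-fold range with replicate 3 lowest.

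The spliceosome depends on an ordered series of helicases, and all 11 of 11 listed ones were measured. DHX15, which takes the spliceosome apart after splicing, had 252, 172 and 87.2 CPM in replicates 1 to 3, a mean of 170.4 ± 82.4. Its level in replicate 1 was 2.89 times that in replicate 3, with replicate 2 between them. AQR, an intron-binding helicase, stood at 133 ± 17.0 CPM. DDX46, which remodels the branch site complex early in assembly, stood at 119 ± 16.4, and DDX39B, which acts both in early spliceosome assembly and in mRNA export, at 113 ± 7.86. AQR, DDX46 and DDX39B differed by at most 1.29-fold between libraries. DDX42, which associates with the branch site machinery, was steadier still at 38.6, 40.9 and 38.0 CPM (39.2 ± 1.54).

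The other spliceosomal helicases had mean CPM from 3.88 to 29.3, and include those that drive the catalytic steps. DHX8, which releases the spliced mRNA, had 24.4, 24.4 and 39.1 CPM in replicates 1 to 3 (29.3 ± 8.52), with replicate 3 highest. DHX16, which activates the spliceosome for the first step, stood at 12.6 ± 1.64, and DHX38, which acts between the first and second steps, at 12.2 ± 1.22. DDX23, which acts at the upstream splice site, had 16.5 ± 4.60 CPM and DDX41 had 14.4 ± 5.39, with 8.43, 18.9 and 15.8 CPM in replicates 1 to 3. DHX35 was among the 3 measured helicase genes with the fewest CPM, at 5.82, 3.43 and 2.39 (3.88 ± 1.76), and its 17 reads in each of replicates 2 and 3 limit its precision. DHX15 and DHX35 shared the order of their libraries, highest in replicate 1 and lowest in replicate 3, whereas DHX8 and DDX23 were highest in replicate 3, so the spliceosomal helicases did not move together between libraries.

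Export of mRNA uses DDX19A and DDX19B, which strip proteins from mRNA at the cytoplasmic face of the nuclear pore, and DDX39A, a paralog of DDX39B. DDX19A had 25.9, 33.2 and 36.0 CPM in replicates 1 to 3 (31.7 ± 5.23) and DDX19B 22.6, 27.4 and 26.9 (25.6 ± 2.65). DDX39A had 8.79, 17.7 and 10.7 CPM (12.4 ± 4.71), with replicate 2 highest. All 3 export genes were lowest in replicate 1, beside 40.3% of all tested genes. DDX19A and DDX19B are close paralogs, and reads with several alignments were not counted, so the level of each is uncertain.

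Ribosome assembly was the largest class, with 16 of 16 listed genes measured at a median of 20.3 CPM. DDX31 had 105, 162 and 199 CPM in replicates 1 to 3 (156 ± 47.3), and DDX24 had 95.7, 117 and 137 (117 ± 20.7), both lowest in replicate 1 and highest in replicate 3. DDX21, a nucleolar helicase that couples rRNA transcription to rRNA processing, stood at 103 ± 8.76 CPM, and its paralog DDX50 at 56.7 ± 5.99. Further members were DDX52 at 61.0 ± 12.1, DDX27 at 31.2 ± 11.0, DDX10 at 29.2 ± 8.61 and DDX47 at 23.3 ± 1.55. DDX10 and DDX52 were lowest in replicate 3, at 19.7 and 47.1 CPM, while DDX27 was highest there, at 42.8 CPM.

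The remaining ribosome assembly helicases had fewer reads. DDX54 had 8.67, 19.5 and 23.8 CPM in replicates 1 to 3 (17.3 ± 7.79), a 2.74-fold range. DDX55 stood at 14.8 ± 0.709, DDX18 at 9.85 ± 3.55, DDX56 at 7.98 ± 0.424 and DDX51 at 5.14 ± 0.284. DDX55, DDX56 and DDX51 each stayed within 1.11-fold between libraries. DHX37, which is needed for maturation of the small ribosomal subunit, stood at 5.59 ± 1.87, and DDX49 at 4.41 ± 1.37. DHX33 had 14, 31 and 12 reads, which gave 1.66, 6.25 and 1.69 CPM (3.20 ± 2.64), and stood at 1.66 CPM without replicate 2. In this class 8 of 16 genes were lowest in replicate 1 (40.3% of all tested genes) and 9 of 16 were highest in replicate 2 (24.4% of all tested genes).

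Helicases of translation, mRNA storage and decay included the steadiest member. DDX6, which represses mRNA and promotes its decapping in processing bodies, had 704, 701 and 678 CPM in replicates 1 to 3, a mean of 694 ± 14.6, and its libraries differed by 1.04-fold. SKIV2L2, now named MTREX, which feeds nuclear RNA to the exosome, had 144, 123 and 94.1 CPM (120.1 ± 24.8). DHX29, which helps ribosomes scan structured leaders, had 110, 106 and 75.3 (97.2 ± 19.1). Both were highest in replicate 1 and lowest in replicate 3. UPF1, the central helicase of nonsense-mediated decay, ran the other way, with 11.8, 16.3 and 26.9 CPM (18.3 ± 7.75), a 2.29-fold range. DHX34, which also acts in nonsense-mediated decay, was not measured by the rule, with 6, 7 and 13 reads. These give 0.713 CPM (exact 95% Poisson interval 0.262 to 1.55), 1.41 (0.567 to 2.91) and 1.83 (0.974 to 3.13), so its libraries are not told apart at this depth.

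DICER1, which cuts precursor hairpins into microRNAs, had 181, 160 and 178 CPM in replicates 1 to 3 (173 ± 11.5), and DDX20, the helicase of the complex that assembles spliceosomal snRNPs, had 85.0, 86.0 and 69.5 (80.2 ± 9.27). Both mitochondrial helicases, which help assemble the mitochondrial ribosome, were measured, DHX30 at 11.5 ± 2.51 CPM and DDX28 at 2.85, 2.62 and 2.39 (2.62 ± 0.229). DDX28 had the fewest CPM of all measured helicase genes, from 24, 13 and 17 reads. Genes without a listed role were DHX40 (150.1 ± 28.0), DHX57 (124 ± 24.0), DHX32 (39.2 ± 3.66) and DDX26B (5.37 ± 1.38). DDX26B matches the symbol rule but is an older name of INTS6L, a relative of an Integrator subunit that is not known as a helicase.

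Germ line helicases were at or near 0, with 1 exception. DDX43 had no reads. By a limit of 3 counts this allows up to 0.356, 0.605 and 0.422 CPM in replicates 1 to 3, and by the wider two-sided exact interval used for DHX34 up to 0.438, 0.743 and 0.519 CPM, provided that reads could be assigned to it. DDX4, the germ cell helicase also called VASA, had 3, 0 and 0 reads. DDX25, best known from the testis, had 35, 21 and 26 reads, or 4.16, 4.23 and 3.66 CPM (4.02 ± 0.312), and its libraries differed by 1.16-fold. DDX11, a DNA helicase of sister chromatid cohesion, had 7, 2 and 13 reads and stood at 0.618 CPM without replicate 3, against 1.02 with all libraries. Because copies made by PCR were counted as separate reads, intervals and limits allow for counting error and nothing else.

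The spread between libraries was tested against the spread of other genes of the same level, over the 10434 genes whose 3 libraries all had at least 10 counts. This set held the same 48 helicase genes. With a negative binomial test on edgeR's trended dispersion and Benjamini-Hochberg adjustment over all tested genes, 0 of 48 helicase genes passed at an adjusted p under 0.05, beside 0% of all tested genes. The trend was fitted to these same 3 libraries and no tested gene passed, so this result does not show that the helicase genes are steady. At an unadjusted p under 0.05 there were 3 of 48, beside 5.06% of all tested genes, and DESeq2's dispersion trend and size factors gave 0 after adjustment and 2 before. The 3 were DHX33 (adjusted p = 0.60 with edgeR), DHX15 (adjusted p = 0.73) and DHX36 (adjusted p = 0.86). The libraries of DHX15 and DHX36 followed the same order, replicate 1 above replicate 2 above replicate 3, whereas DHX33 was high in replicate 2 alone.

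A test against counting error alone asks less, namely whether the libraries differ by more than the Poisson spread of their reads. By it 33 of 48 helicase genes (68.8%) passed after the same adjustment, beside 70.5% of all tested genes, so these genes passed at about the rate of the table. The 15 that did not pass include DDX6, DDX42, DDX47, DDX55, DDX56, DDX51 and DDX28, whose libraries differed by 1.04- to 1.19-fold, and DDX19B, DHX32, DDX25, DHX16, DHX38, DHX30, DDX26B and DDX49, at 1.16- to 1.91-fold. DDX6 is the most deeply read of these, with 5929, 3481 and 4816 reads. A range of 2-fold or more between libraries was found for 9 of 48 (18.8%), beside 24.6% of tested genes. These 9 were DHX33, DHX15, DDX54, DHX36, DHX35, UPF1, DDX41, DDX27 and DDX39A. The median SD on the log2(CPM + 0.5) scale was 0.27 over the 48 genes and 0.31 over all tested genes, whose median level was 23.1 CPM against 31.5 CPM for the helicase genes.

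**Figure D2:**
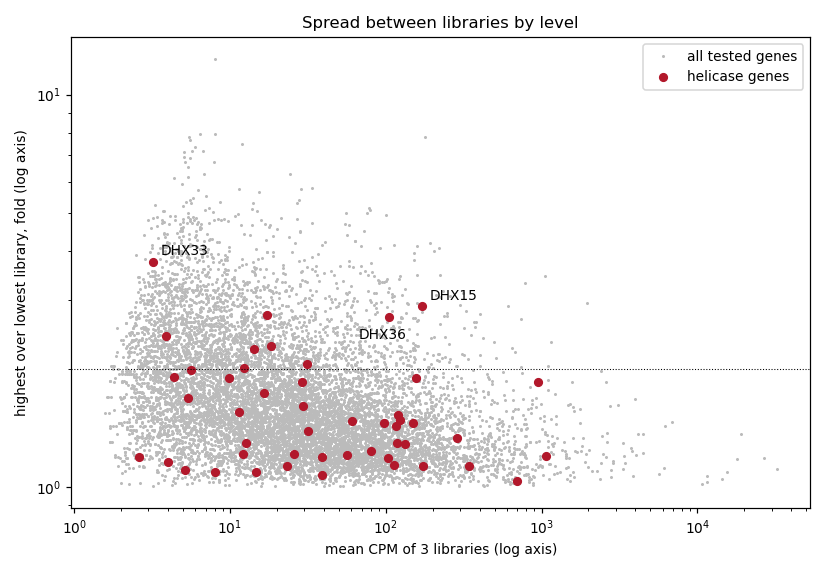
The fold between the highest and the lowest library (log axis, dotted line at 2-fold) is plotted against mean CPM (log axis) for all 10434 tested genes in grey and the 48 helicase genes in red. Helicase genes lie within the cloud of all genes, and the 3 named points, DHX33, DHX15 and DHX36, reach 3.76-, 2.89- and 2.71-fold.

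Across the 48 genes, 16 were highest in replicate 1 (39.3% of all tested genes), 17 in replicate 2 (24.4%) and 15 in replicate 3 (36.3%). The lowest library was replicate 1 for 15 (40.3% of all tested genes), replicate 2 for 12 (24.2%) and replicate 3 for 21 (35.4%). No single library held all of the high or all of the low values of the family. Replicate 3 was the lowest library most often, and the summed level of the 52 genes was 6121, 5706 and 5141 CPM in replicates 1 to 3. Genes with many reads weigh most in this sum, and DDX5 alone had 1178, 1031 and 634 CPM. The classes did not share the fall. The summed level was 775, 638 and 577 CPM for the spliceosomal helicases but 567, 665 and 703 CPM for ribosome assembly. Replicate 2 is the library with the fewest reads, and the part of depth in the counts of highest and lowest libraries was not tested.

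**Figure D3:**
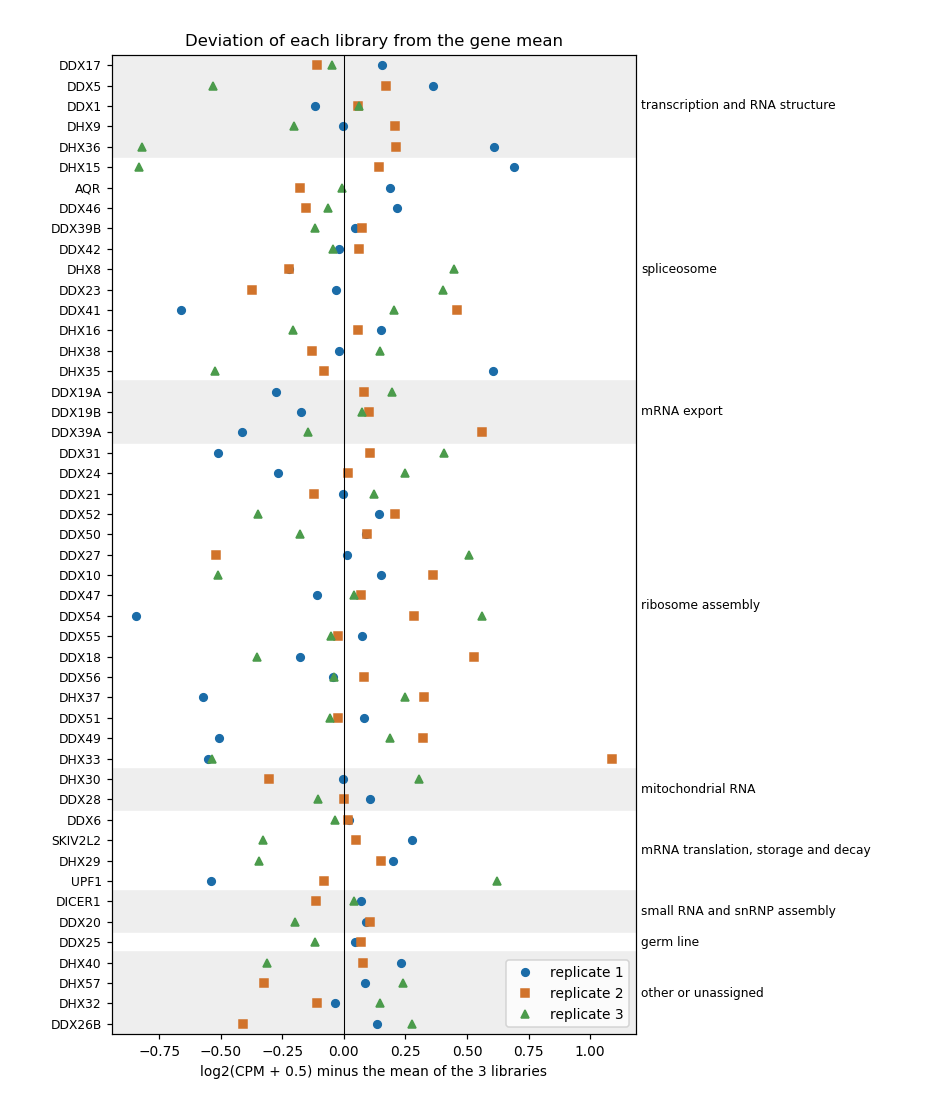
Each row is a measured helicase gene and each symbol is the log2(CPM + 0.5) of 1 library minus the mean of the 3 libraries. Replicate 3 lies below -0.5 for DHX15, DHX36, DHX33, DDX5, DHX35 and DDX10 and above 0.5 for UPF1, DDX54 and DDX27.

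Related helicases were compared as the ratio of their reads within each library. The size of such a ratio carries the lengths of both genes, but its change between libraries does not. Whether a ratio lies above or below equal reads is thus a statement about reads and not about transcripts. Of 10 planned pairs, 8 had both genes measured. With 3 replicates the exact sign-flip permutation test cannot give a p below 0.25, so no test was made, and each ratio is given by library with an exact 95% binomial interval. Such an interval holds counting error only, and 70.5% of all tested genes differed between libraries by more than that. Other gene pairs were not compared.

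DDX5 and DDX17 had nearly equal reads in replicates 1 and 2, with DDX5 over DDX17 at 0.987 (0.960 to 1.02) and 1.04 (0.996 to 1.08), but 0.611 (0.588 to 0.634) in replicate 3. The interval of replicate 3 does not reach those of the other libraries. The mean log2 ratio was -0.23 ± 0.42, which is smaller than its SD, and 0.016 without replicate 3. DHX9 over DHX36 was 1.91 (1.78 to 2.04), 2.92 (2.65 to 3.22) and 4.50 (4.03 to 5.04) in replicates 1 to 3, and no 2 of these intervals overlap. Its mean log2 ratio was 1.54 ± 0.62, and DHX9 had more reads than DHX36 in every library. DHX15 over DHX32, a related gene, was 6.61 (5.88 to 7.46), 4.74 (4.03 to 5.60) and 2.01 (1.75 to 2.32), with a mean log2 ratio of 1.98 ± 0.88. DHX29 over the related DHX57 was 0.849 (0.777 to 0.927), 1.09 (0.964 to 1.24) and 0.522 (0.469 to 0.580), and its mean log2 ratio of -0.35 ± 0.54 had no common direction.

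For the pair DDX19A and DDX19B the ratio was steadier. DDX19A over DDX19B was 1.15 (0.940 to 1.40), 1.21 (0.961 to 1.53) and 1.34 (1.11 to 1.63), intervals that all overlap, with a mean log2 ratio of 0.29 ± 0.11. DHX8 over DHX38, which act one after the other in splicing, was 2.03 (1.59 to 2.60), 2.20 (1.59 to 3.08) and 2.90 (2.29 to 3.69), a mean log2 ratio of 1.20 ± 0.27. DDX21 over DDX50 was 1.71 (1.53 to 1.91), 1.57 (1.35 to 1.82) and 2.25 (1.98 to 2.56), a mean log2 ratio of 0.86 ± 0.27, with replicate 3 above both other intervals. DDX39A had few reads beside DDX39B, with ratios of 0.0757 (0.0590 to 0.0960), 0.150 (0.118 to 0.188) and 0.103 (0.0803 to 0.131) and a mean log2 ratio of -3.19 ± 0.47. The intervals of replicates 1 and 2 do not overlap for this pair.

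**Figure D4:**
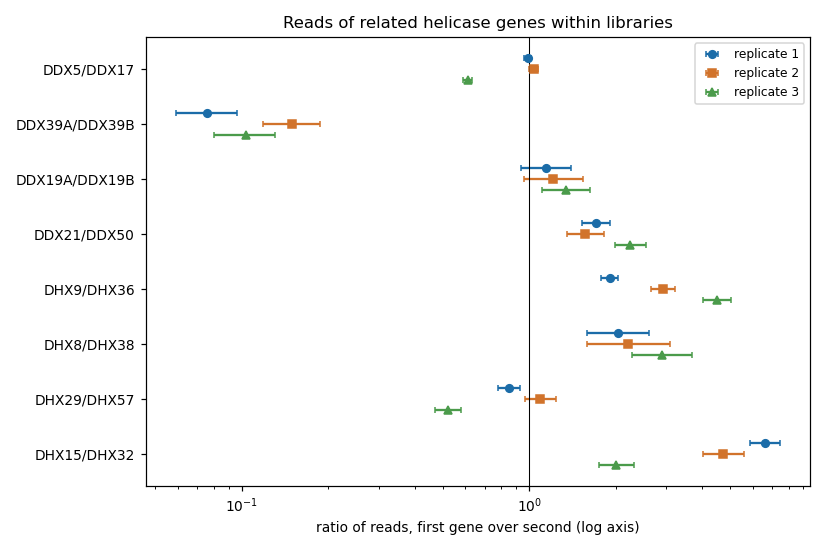
For each of 8 pairs of related helicase genes, symbols show the ratio of reads (first gene over second, log axis) in each library with its exact 95% binomial interval, and the vertical line marks equal reads. The interval of replicate 3 alone stands apart for DDX5/DDX17 and DDX21/DDX50, while no 2 intervals overlap for DHX9/DHX36, DHX29/DHX57 and DHX15/DHX32. Those of replicates 1 and 2 do not overlap for DDX39A/DDX39B, and the 3 intervals overlap for DDX19A/DDX19B and DHX8/DHX38.

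Some helicase genes sit next to each other in the genome. In RefSeq's ARS-UCD2.0 annotation, which named 51 of the 52 genes, DDX21 and DDX50 are neighbours, and so are SKIV2L2 (as MTREX) and DHX29. SKIV2L2 and DHX29 had the same order of libraries, with log2(CPM + 0.5) deviations from the mean of 0.28, 0.05 and -0.33 for SKIV2L2 and 0.20, 0.15 and -0.35 for DHX29 in replicates 1 to 3. DDX5, DHX15, DHX36 and DHX40, which do not lie next to them, had this order too. DDX21 and DDX50 had different orders, with replicate 3 highest for DDX21 and lowest for DDX50. In that annotation 13 of the 51 overlap another protein-coding gene, among them DDX17, DHX36, UPF1 and DDX46. Since the strand setting of the counting is not given, reads of these genes and of an overlapping gene may not be fully separated.

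Genes that work with these helicases were counted from fixed lists. Of 90 listed, 88 were in the table and 86 (97.7%) were measured, beside 34.6% of all genes in the table. In the same negative binomial test 0 of 84 tested partner genes passed (3 at an unadjusted p under 0.05), beside 0% of all tested genes. Against counting error alone 59 of 84 (70.2%) passed, beside 70.5% of all tested genes.

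The microRNA pathway beside DICER1 had 12 of 12 genes measured, with most CPM for TNRC6A (139 ± 16.3), a scaffold of the silencing complex, and XPO5 (71.6 ± 4.11), which exports the hairpins that DICER1 cuts. AGO3, an Argonaute gene, had 49.7, 26.0 and 20.1 CPM in replicates 1 to 3, and did not pass after adjustment (adjusted p = 0.92 with edgeR). The SMN complex beside DDX20 had 8 of 8 measured, with most CPM for STRAP (112 ± 31.3) and GEMIN5 (40.7 ± 7.34), which recognises snRNAs. Nonsense-mediated decay beside UPF1 and DHX34 had 8 of 8 measured, with most CPM for SMG1 (155 ± 45.0), the kinase that phosphorylates UPF1. SMG1 was highest in replicate 1, at 207 CPM against 133 and 125, whereas UPF1 was lowest there. The list was mixed, with 4 of 8 genes highest in replicate 1 (39.3% of all tested genes) and 2 lowest there (40.3%). In the negative binomial test neither SMG1 (unadjusted p = 0.21 with edgeR) nor UPF1 (unadjusted p = 0.12) passed.

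For the exosome and its cofactors, 17 of 18 genes were measured, with most CPM for HBS1L (218 ± 25.0) and the SKI complex scaffold TTC37 (198 ± 21.4). The exception was EXOSC5, an exosome core subunit, with 34, 4 and 8 reads. EXOSC2, another core subunit, had 1.78, 2.22 and 7.88 CPM (adjusted p = 0.71 with edgeR, not passed). Decapping and repression genes beside DDX6 had 11 of 11 measured, with most CPM for CNOT1 (367 ± 28.2), the scaffold of the deadenylase complex that binds DDX6, and LSM14A (163 ± 8.85), a DDX6 partner in mRNA repression. Like DDX6, LSM14A was steady, at 163, 171 and 154 CPM, but this did not hold for the whole list. A range of 2-fold or more was found for 2 of its 10 tested genes (20%), beside 24.6% of all tested genes.

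Export genes beside the DDX19 and DDX39 genes had 12 of 12 measured, with most CPM for ZC3H11A (287 ± 42.5) and THOC1 (109.8 ± 20.8), a subunit of the complex that brings DDX39B to mRNA. THOC7, another subunit of that complex, had 61.9, 32.6 and 15.8 CPM in replicates 1 to 3 and did not pass after adjustment (adjusted p = 0.48 with edgeR). Its order of libraries was that of DHX15 and DHX36, but also that of other partner genes such as XRN1 and SMG1. The share of all tested genes with this order was not counted. G-patch proteins, which switch on DHX15 or DHX16, had 7 of 7 measured, with most CPM for RBM5 (215 ± 6.09) and CMTR1 (18.8 ± 6.15). RBM5 stayed between 210 and 222 CPM while DHX15 ranged from 87.2 to 252. The list as a whole was less steady than RBM5. The median fold between the highest and the lowest library was 1.87 over its 7 genes, against 1.54 over all tested genes. Their median level was lower, at 12.7 CPM against 23.1 CPM. A range of 2-fold or more was found for 1 of 7 (14.3%), beside 24.6% of tested genes. Against counting error 4 of 7 (57.1%) passed, beside 70.5%, so the list was not more variable than the table by these counts.

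Helicases of the same superfamily that carry other names had 11 of 12 measured. The translation initiation helicase genes EIF4A2 and EIF4A1, DEAD box members themselves, stood at 367 ± 108 and 212 ± 44.1 CPM. EIF4A2 had 467, 381 and 253 CPM in replicates 1 to 3, highest in replicate 1, whereas EIF4A1 had 161, 237 and 238, lowest in replicate 1. TDRD9, a helicase of germ cells, had 0 reads in every library, like DDX43.

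**Figure D5:**
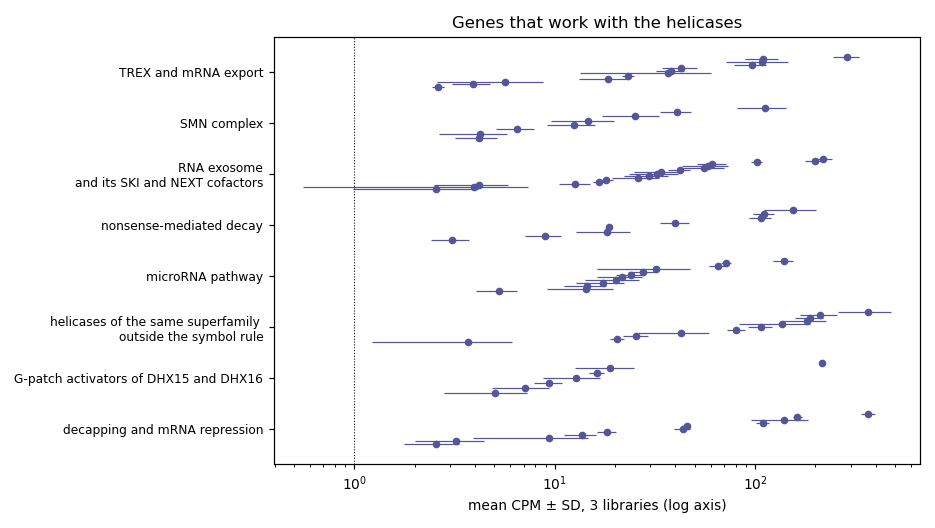
Each point is a measured partner gene at its mean CPM with the SD of 3 libraries as a bar (log axis, not corrected for length), by list, with genes spread vertically within a list for legibility. All points shown lie to the right of the dotted line at 1 CPM, since EXOSC5 and TDRD9 were not measured.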

How the data were processed

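RNA-seq libraries of 3 replicates of BFF116 cells were prepared with an amplification kit (NuGEN Ovation RNA-Seq) from total RNA and sequenced as single reads of 100 bases, per the labels' protocols. The submitters' processing notes name HTSeq 0.6.1, TopHat2 2.0.10 and bcl2fastq 2.18.0.12. Neither the build and annotation nor the counting mode and strand is known, since none of these is given in the sources used here. As deposited, the values are raw whole-number counts for each gene symbol. The 5 summary rows that name no gene entered neither library sizes nor tests. Shares below are of all reads in gene and summary rows, in replicates 1 to 3. Reads assigned to no annotated feature made up 59.2, 58.9 and 62.0%. As the counting mode and strand are not known, where these reads lie relative to genes is not known either. Reads with several alignments made up 7.93, 7.52 and 7.99%, and reads over more than 1 gene 0.237, 0.253 and 0.235%. The rows for low alignment quality and for unaligned reads were at 0.

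CPM values were computed from the counts with edgeR 4.0.16 (TMM) in R 4.3.3, and log2 levels with a pseudocount of 0.5. Replicate spread was tested with a Pearson statistic per gene against chi-square with edgeR's trended dispersion (common biological coefficient of variation 0.273) or, added after the data were seen, with Poisson variance, and Benjamini-Hochberg adjustment over 10434 genes. The script was checked on simulated data. Alternatives were DESeq2 1.42.0 size factors and dispersions, total counts, other thresholds, filters and pseudocounts, and leaving out each replicate. Planned levels per kb of length and the search for protein motifs were not made here, and DDX12, DDX53 and SKIV2L were not analysed here. The helicase genes, roles, partner lists and pairs were chosen with earlier results of these data known. Every helicase gene is named. Of each partner list the 2 genes with the highest mean CPM and those not measured are named by rule (1 gene is not reported here), and AGO3, EXOSC2, THOC7 were added after their values were seen.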

Additional observations from a re-analysis of the deposited data

How the results depend on the processing

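The count of measured helicase genes was 48 in the main setting, 47 at a minimum of 2 CPM, 49 at 0.5 CPM, and 48 with DESeq2 size factors or total counts. Leaving out a replicate gave 48 to 49 measured helicase genes, 0 helicase genes more variable than the trend and 23 to 28 beyond counting error. Of all tested genes, 15 of 10637 were more variable than the trend without replicate 1, 0 of 11041 without replicate 2 and 1 of 10665 without replicate 3. The share of all tested genes beyond counting error is not given for these settings. The read ratio of DDX5 over DDX17 changed direction when replicates were left out in turn, with log2 means from -0.36 to 0.016, the last without replicate 3. The median of the ribosome assembly class ranged from 19.0 to 23.2 CPM, the last without replicate 1. The germ line class had a median of 0.119 CPM over 3 genes, and 4.02 CPM where only DDX25 had 10 counts in every library. The mean of DHX33 was 1.66 CPM without replicate 2, against 3.20. Other scalings moved the log2 level of a library by at most 0.035. No paired analysis was possible because the series has 1 group. Depth limits DHX34, DDX11, DDX4 and DDX43, each under 10 reads in some library, and DDX28, DHX33 and DHX35, with 12 to 17 reads in their lowest library.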
